A study of Homo sapiens with 4 samples.

Results

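The genes described here are HIF1A, which encodes the oxygen-regulated subunit of a hypoxia-inducible transcription factor, and 9 genes known as its targets outside glycolysis: VEGFA, CA9, ADM, NDRG1, BNIP3, EGLN3, ANKRD37, SLC2A1 and P4HA1. They were chosen by name, with earlier results of these data known, and all 10 were found by Ensembl gene ID among the 20263 genes of the deposited count table. The treated samples were MDA-MB-231 cells, an established human line from a triple-negative breast cancer, kept for 24 h with RB-1. The controls were the same line kept with the solvent DMSO. The series title calls RB-1 a derivative of ribociclib, an inhibitor of the cell-cycle kinases CDK4 and CDK6, and the labels give no dose and no oxygen level. Each group had 2 RNA libraries. Both groups grew in DMEM medium with fetal bovine serum and antibiotics, at the same serum percentage and the same CO2 percentage. Whether the replicate libraries were grown as separate cultures is not stated in the labels, and the p-values then reflect only the variation among these 4 libraries, possibly technical.

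When oxygen is plentiful, prolyl hydroxylases of the EGLN family mark HIF alpha subunits, and a ubiquitin ligase built around VHL has them degraded. When oxygen is low, the alpha subunit is stabilised, pairs with ARNT and switches on genes for blood vessel growth, acid-base balance, mitochondrial turnover, glucose uptake and collagen synthesis. This control acts mainly on the protein, so a transcript count of HIF1A does not measure the amount or activity of the protein. In breast cancer, CA9 and VEGFA are widely used as readouts of the hypoxia response.

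Library totals ran from 34122874 to 37754168 counts. Of markers known to be high in this line, VIM, CD44 and AXL were each at 416 CPM or more (counts per 1000000 of a library total scaled by TMM factors), and of markers known to be low, ESR1 was at 0.659 CPM or less and CDH1 at 2 counts or fewer. ERBB2, also known to be low, was at 57.3 to 77.2 CPM. EPCAM, the remaining epithelial marker, was at 9.46 to 13.5 CPM, and PGR reached 1.77 CPM. The 8 markers of blood, vessel and liver cells together summed to 1.98 to 2.67 CPM, with CD3E at 0 counts. Transcripts of mitochondrial DNA took 4.25% and 6.46% of the counts in the RB-1 libraries, against 8.68% and 21.7% in the DMSO libraries, and the part of this difference in the results was not tested. In bulk RNA, fewer cells with a transcript and less of it per cell cannot be told apart.

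HIF1A transcripts fell after RB-1 while 5 of the 9 target genes rose. HIF1A was 6.61-fold lower, and VEGFA, BNIP3, NDRG1, SLC2A1 and CA9 were between 1.64-fold and 17.6-fold higher, the last from very few counts. ADM, EGLN3, ANKRD37 and P4HA1 did not pass the test. Across the 10 genes this made 5 higher and 1 lower with edgeR (quasi-likelihood test, adjusted p below 0.05). Of the 13612 genes tested, 12.5% were higher, 15.8% lower and 28.3% either. With the libraries scaled to their totals alone, 2015 genes in all were higher and 1381 lower, against 1702 and 2149 with TMM factors. In 7 of the 10 genes the groups did not overlap in CPM, which also held for 69.7% of all genes tested, so that share is near the background. RB-1 lay above DMSO in 6 of them, against 35.3% of all genes tested, and below in 1, against 34.3%. The median log2 fold change of the 10 was 0.79, against 0.01 for all genes tested. CA9 passed the filter on low counts through its RB-1 libraries alone and so had to differ. Without it, 4 of 9 genes were higher, 1 was lower and the median was 0.71.

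**Figure D1:**
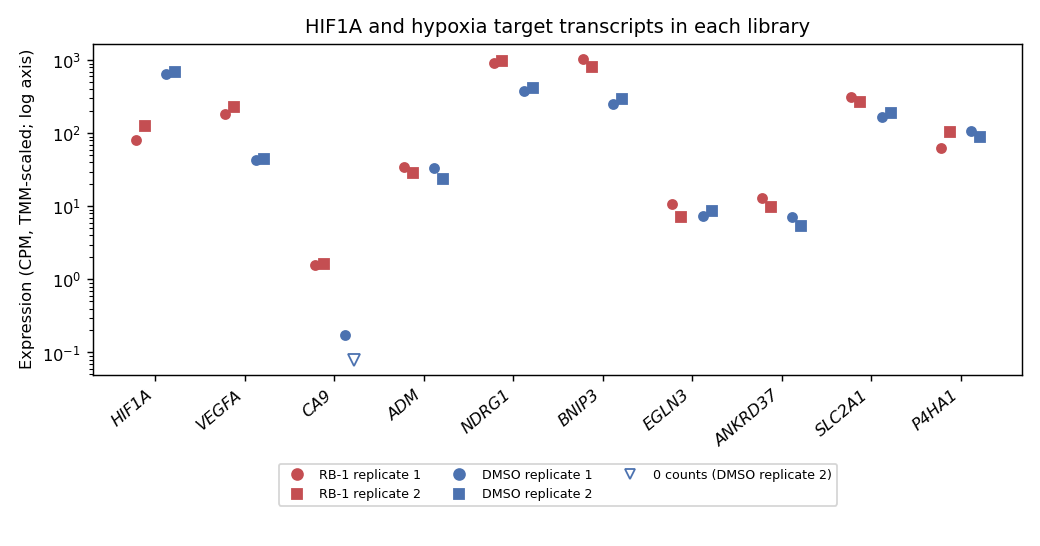
Expression of the 10 genes in CPM on a log axis, with 1 point per library, RB-1 (red) left of DMSO (blue); circles are replicate 1 and squares replicate 2. The HIF1A points of RB-1 (81.2 and 124 CPM) lie below those of DMSO (658 and 697 CPM), while VEGFA, NDRG1, BNIP3 and SLC2A1 lie the other way; the open triangle marks the DMSO library with 0 counts of CA9, which has no place on a log axis.

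HIF1A (ENSG00000100644), the regulator of the group, stood at 81.2 and 124 CPM in the RB-1 libraries, against 658 and 697 CPM in the DMSO libraries. Both RB-1 libraries lay far below both DMSO libraries, and RB-1 replicate 1 was the lower of its pair. The means were 103 ± 30.3 CPM in RB-1 and 678 ± 27.7 CPM in DMSO (SD, n = 2 each), with a log2 fold change of -2.72 ± 0.27 SE (edgeR adjusted p = 0.000251). Of the 13612 genes tested, 207 had a lower log2 fold change. The call held in all 14 alternative analyses, with log2 fold changes from -3.06 to -2.44. Of the exon bases of HIF1A, 2.27% overlap the antisense transcript HIF1A-AS1, and 2.87% overlap AL137129.1 on the same strand. Neither is a row of the deposited table.

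The closest profiles to HIF1A over the 4 libraries, by Euclidean distance of centred log2 CPM among 11479 tested genes that averaged 100 counts or more, belonged to USF3, TET2 and COBLL1. USF3, the closest at a distance of 0.03 log2 units, had 7.34 and 11.4 CPM in RB-1, against 59.3 and 62.8 CPM in DMSO. TET2, a DNA demethylation enzyme gene, had 6.23 and 9.08 CPM in RB-1, against 52.7 and 50.7 CPM in DMSO. The profile of 4 libraries is mostly the difference between the groups, so this is a description of these libraries.

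Among the secreted factors and their relatives, VEGFA rose and ADM did not pass. VEGFA (ENSG00000112715), the main growth factor for blood vessels, was at 183 and 232 CPM in the RB-1 libraries, against 43.6 and 44.5 CPM in the DMSO libraries. The groups were far apart relative to the spread within each (log2 fold change 2.24 ± 0.25 SE, adjusted p = 0.000386 by edgeR). The genes with profiles most like it were FCHO1, PIGZ and ADM2, at distances of 0.19, 0.21 and 0.29 log2 units. ADM (ENSG00000148926), the vasodilator peptide adrenomedullin, was at 34.9 and 28.5 CPM in RB-1, against 33.1 and 23.7 CPM in DMSO. The groups overlapped (0.16 ± 0.30, adjusted p = 0.721), and the sign of its log2 fold change turned when length and GC content were corrected for (-0.34).

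ADM2, which encodes a peptide related to adrenomedullin, was at 23.7 and 23.9 CPM in RB-1, against 5.79 and 5.37 CPM in DMSO (log2 fold change 2.09 ± 0.30 SE, adjusted p = 0.00125 by edgeR). Of the other VEGF ligands, VEGFB had a log2 fold change of 0.74 ± 0.26 and VEGFC of 0.25 ± 0.26, and neither passed (adjusted p = 0.0573 and 0.489). VEGFB did pass with upper-quartile factors (0.85, adjusted p = 0.0343), library totals alone (0.94, adjusted p = 0.0386), DESeq2 (0.73, adjusted p = 0.0331) and with RB-1 replicate 2 left out (0.88, adjusted p = 0.0390), while length and GC offsets brought it to 0.13 (adjusted p = 0.631). PGF, the placental growth factor, had 0.80 ± 0.33 (adjusted p = 0.0900). Among VEGF receptors, FLT1 had 0 counts in every library and KDR was at 7.45 and 11.9 CPM in RB-1, against 6.71 and 6.07 CPM in DMSO (adjusted p = 0.216). The co-receptors NRP1 (0.05 ± 0.26) and NRP2 (-0.52 ± 0.28) did not pass, though NRP1 passed with length and GC offsets (0.74, adjusted p = 0.0263).

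CA9 (ENSG00000107159), a cell-surface carbonic anhydrase with a role in acid-base balance, was nearly absent in DMSO and low in RB-1. It had 60 and 61 counts in the RB-1 libraries, against 6 and 0 counts in the DMSO libraries. That is 1.59 and 1.63 CPM in RB-1, against 0.172 and 0 CPM in DMSO (log2 fold change 4.14 ± 0.85 SE, adjusted p = 0.0071 by edgeR). CA9 entered the test through its RB-1 libraries alone, so the lack of overlap and this p are no independent evidence of a rise. Without DMSO replicate 1 the remaining DMSO library is at 0, and RB-1 was then at least 17.6-fold higher against a floor of 3 counts in that library, which covers counting error only. Without DMSO replicate 2 the log2 fold change was 3.22. The size is uncertain for another reason: 38.5% of the exon bases of CA9 overlap ARHGEF39 on the opposite strand, and whether reads were counted by strand was not given by the sources used. ARHGEF39 was at 16.9 and 13.6 CPM in RB-1, against 9.17 and 8.06 CPM in DMSO (0.82 ± 0.31, adjusted p = 0.0683). Its part in the CA9 counts was not tested. CA12, a related membrane carbonic anhydrase, was at 21.1 and 23.0 CPM in RB-1, against 14.9 and 11.3 CPM in DMSO (0.75 ± 0.30, adjusted p = 0.0821); it passed with upper-quartile factors (0.86, adjusted p = 0.0483) and with length and GC offsets (0.87, adjusted p = 0.0266).

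BNIP3 (ENSG00000176171), a mitochondrial outer-membrane protein that promotes the removal of mitochondria, was at 1040 and 803 CPM in the RB-1 libraries, against 253 and 291 CPM in the DMSO libraries. Both RB-1 libraries lay above both DMSO libraries, and RB-1 replicate 1 was the highest (log2 fold change 1.76 ± 0.24 SE, adjusted p = 0.000938 by edgeR). BNIP3 has 39 annotated pseudogene copies, none of them a row of the table, so its counts are uncertain where the counting could split or add their reads. Its paralogue BNIP3L was at 140 and 84.0 CPM in RB-1, against 103 and 136 CPM in DMSO, and the groups overlapped (-0.10 ± 0.29, adjusted p = 0.831).

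NDRG1 (ENSG00000104419), a stress-responsive gene also linked to differentiation, was at 904 and 982 CPM in the RB-1 libraries, against 382 and 419 CPM in the DMSO libraries. The pairs were tight and well apart (1.24 ± 0.22 SE, adjusted p = 0.00354 by edgeR). NDRG3, a gene of the same family, was at 124 and 126 CPM in RB-1, against 73.6 and 127 CPM in DMSO, and the groups overlapped (0.31 ± 0.28, adjusted p = 0.432).

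SLC2A1 (ENSG00000117394), the glucose transporter GLUT1, was at 313 and 265 CPM in the RB-1 libraries, against 165 and 188 CPM in the DMSO libraries. The groups did not overlap, but the rise was the smallest of the 5 and near the threshold (0.71 ± 0.23 SE, adjusted p = 0.0407 by edgeR). It did not pass without RB-1 replicate 1 (0.59, adjusted p = 0.157), without DMSO replicate 1 (0.62, adjusted p = 0.204), without DMSO replicate 2 (0.83, adjusted p = 0.116) or with length and GC offsets (0.52, adjusted p = 0.051). SLC2A3, the transporter GLUT3, was at 131 and 151 CPM in RB-1, against 87.0 and 91.2 CPM in DMSO (0.66 ± 0.23, adjusted p = 0.0560). It passed with upper-quartile factors (0.77, adjusted p = 0.0345), library totals alone (0.86, adjusted p = 0.0333) and length and GC offsets (0.82, adjusted p = 0.0119). Reads of SLC2A3 may be shared with its close copy SLC2A14, which was at 2.99 and 2.67 CPM in RB-1, against 1.23 and 1.71 CPM in DMSO.

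P4HA1 (ENSG00000122884), a catalytic subunit of the collagen prolyl 4-hydroxylase, was at 62.0 and 105 CPM in the RB-1 libraries, against 106 and 89.5 CPM in the DMSO libraries. RB-1 replicate 1 was the lowest and RB-1 replicate 2 lay between the DMSO libraries (-0.23 ± 0.29 SE, adjusted p = 0.580 by edgeR), and without RB-1 replicate 1 the sign turned (0.10). P4HA2, the alternative catalytic subunit, was at 106 and 79.5 CPM in RB-1, against 37.9 and 43.7 CPM in DMSO (1.18 ± 0.27, adjusted p = 0.0106). Its call was lost without RB-1 replicate 1 (0.96, adjusted p = 0.0502), DMSO replicate 1 (1.08, adjusted p = 0.0815) or DMSO replicate 2 (1.31, adjusted p = 0.0543). P4HA3 was near 1 CPM in RB-1 and passed narrowly (1.77 ± 0.58, adjusted p = 0.0422), a call lost in 9 of 13 alternatives. Both RB-1 libraries were over the filter on low counts but only 1 DMSO library was, so the P4HA3 call carries little weight. P4HB, the shared partner subunit, did not pass (0.11 ± 0.28, adjusted p = 0.805).

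ANKRD37 (ENSG00000186352), a small ankyrin-repeat protein gene, was at 13.2 and 9.75 CPM in the RB-1 libraries, against 7.17 and 5.31 CPM in the DMSO libraries. The groups did not overlap and the test was missed (0.88 ± 0.34 SE, adjusted p = 0.0728 by edgeR). It passed in 4 of 14 alternatives, among them upper-quartile factors (0.98, adjusted p = 0.0457) and length and GC offsets (0.92, adjusted p = 0.0378). Its exons overlap those of UFSP2 on the opposite strand over 35.2% of their bases, so its counts are uncertain. UFSP2 moved the other way, at 11.0 and 13.3 CPM in RB-1, against 23.9 and 24.9 CPM in DMSO (-1.0 ± 0.29, adjusted p = 0.0271). Its part in the ANKRD37 counts was not tested. The UFSP2 call was lost without RB-1 replicate 1, DMSO replicate 1 or DMSO replicate 2 and with library totals alone, with adjusted p up to 0.169.

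EGLN3 (ENSG00000129521), the prolyl hydroxylase that is itself a hypoxia target, was at 10.9 and 7.16 CPM in the RB-1 libraries, against 7.28 and 8.61 CPM in the DMSO libraries. The groups overlapped (0.19 ± 0.34 SE, adjusted p = 0.707 by edgeR), and without RB-1 replicate 1 the sign turned (-0.15). EGLN1, the main oxygen sensor among these hydroxylases, was at 189 and 161 CPM in RB-1, against 85.9 and 70.2 CPM in DMSO. It rose (1.16 ± 0.24, adjusted p = 0.00703), though not past the threshold without DMSO replicate 2 (1.05, adjusted p = 0.0627).

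**Figure D2:**
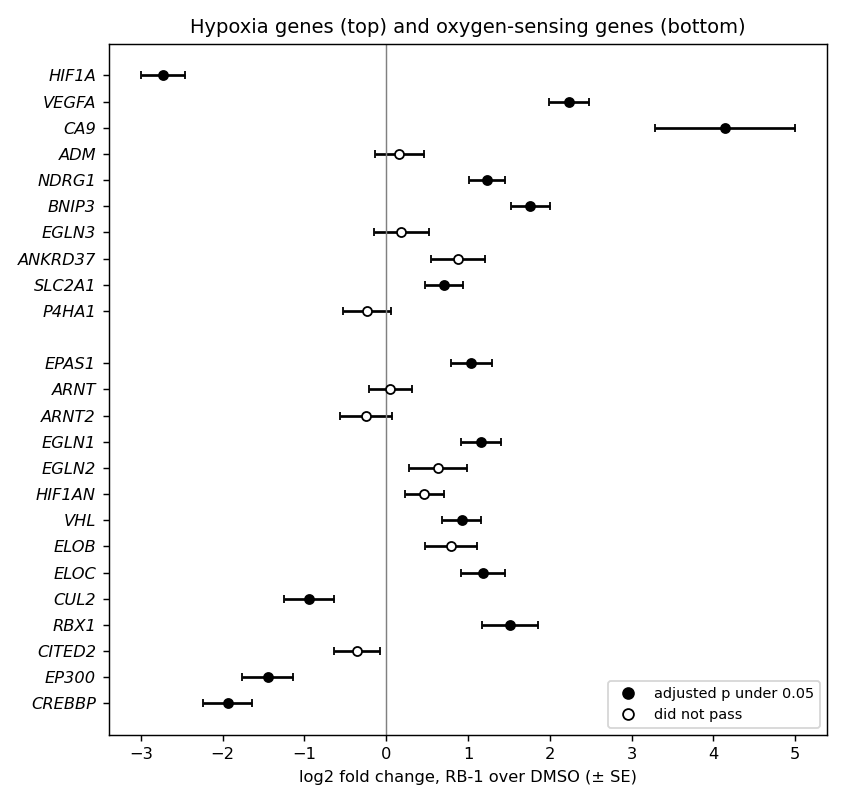
Log2 fold changes of RB-1 over DMSO with SE bars for the 10 genes (top block) and the 14 tested genes of oxygen sensing (bottom block); filled points passed an adjusted p under 0.05. HIF1A at -2.72 is the lowest point, and CA9 at 4.14 the highest, with the widest bar.

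Among the genes that control HIF, some were higher and some lower. Of 15 listed genes, chosen by name, HIF3A had 0 counts in every library and was not tested. Of the other 14, 5 rose (EPAS1, EGLN1, VHL, ELOC and RBX1), 3 fell (CUL2, EP300 and CREBBP) and 6 did not pass, with a median log2 fold change of 0.55, against 0.01 over all genes tested. That is 35.7% higher and 21.4% lower, against 12.5% and 15.8% of all genes tested, so the lower share is near the background. Without DMSO replicate 2 none of the list was higher and 1 was lower. Without RB-1 replicate 1 the numbers were 3 and 1, and without DMSO replicate 1 they were 3 and 2.

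EPAS1, which encodes HIF-2 alpha, the other main oxygen-regulated subunit, was at 106 and 130 CPM in the RB-1 libraries, against 57.7 and 57.2 CPM in the DMSO libraries (log2 fold change 1.04 ± 0.25 SE, adjusted p = 0.0123 by edgeR). Leaving out DMSO replicate 1 (1.05, adjusted p = 0.0682) or DMSO replicate 2 (1.05, adjusted p = 0.0811) ended the call. Per kilobase of exon, EPAS1 stood at 0.921 and 0.742 of the level of HIF1A in the RB-1 libraries, against 0.0619 and 0.0579 in the DMSO libraries. Divided by all annotated exon bases, the transcripts of the pair were thus at similar levels after RB-1. HIF1A was far above EPAS1 in DMSO. The levels of one gene against the other depend on that annotation, while the change in their ratio between the groups does not. ARNT, the common partner of both, was at 50.5 and 61.1 CPM in RB-1, against 51.4 and 56.4 CPM in DMSO (0.05 ± 0.27, adjusted p = 0.906). ARNT2 also overlapped (-0.25 ± 0.32, adjusted p = 0.585).

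The ubiquitin ligase that degrades HIF alpha had subunits on both sides. VHL, its substrate-binding subunit, was at 139 and 130 CPM in RB-1, against 69.4 and 72.7 CPM in DMSO (0.92 ± 0.23 SE, adjusted p = 0.0159 by edgeR). It did not pass without RB-1 replicate 1 (0.87, adjusted p = 0.0526), without DMSO replicate 1 (0.89, adjusted p = 0.0981) or without DMSO replicate 2 (0.98, adjusted p = 0.0887). The adaptor ELOC (1.18 ± 0.27, adjusted p = 0.0102) and the RING subunit RBX1 (1.52 ± 0.35, adjusted p = 0.0102) rose. The RBX1 libraries of RB-1 were 84.0 and 44.0 CPM, against 24.5 and 20.2 CPM in DMSO. ELOC lost its call without DMSO replicate 2 (1.09, adjusted p = 0.105), and RBX1 when RB-1 replicate 1 (0.98, adjusted p = 0.0551) or DMSO replicate 2 (1.40, adjusted p = 0.0807) was left out. ELOC has 32 annotated pseudogene copies outside the table and is uncertain. ELOB, the partner adaptor, was at 122 and 64.6 CPM in RB-1, against 55.7 and 51.9 CPM in DMSO (0.79 ± 0.32, adjusted p = 0.0854). Leaving out RB-1 replicate 2 made it pass (1.18, adjusted p = 0.0141), while leaving out RB-1 replicate 1 gave 0.27 (adjusted p = 0.517). With length and GC offsets it was 0.20 (adjusted p = 0.526). Of its exon bases, 16.8% overlap SRRM2 on the opposite strand. The scaffold CUL2 fell (-0.94 ± 0.30, adjusted p = 0.0400), a call lost in 7 of 14 alternatives, with adjusted p up to 0.242.

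The oxygen-dependent asparaginyl hydroxylase HIF1AN, which blocks coactivator binding, was at 161 and 137 CPM in RB-1, against 118 and 98.0 CPM in DMSO (0.46 ± 0.24 SE, adjusted p = 0.169 by edgeR). With length and GC offsets it passed (1.15, adjusted p = 0.00748). EGLN2, another prolyl hydroxylase, was at 67.8 and 32.3 CPM in RB-1, against 33.5 and 31.0 CPM in DMSO (0.64 ± 0.35, adjusted p = 0.202). With RB-1 replicate 2 left out it passed (1.07, adjusted p = 0.0227), and with RB-1 replicate 1 left out it was 0.0073 (adjusted p = 0.989), so the difference rests on RB-1 replicate 1. EGLN2 shares 30.6% of its exon bases with the read-through gene RAB4B-EGLN2 on the same strand. RAB4B-EGLN2 was at 9.14 and 9.75 CPM in RB-1, against 2.35 and 3.97 CPM in DMSO (1.58 ± 0.37, adjusted p = 0.0108 by edgeR). Its part in the EGLN2 counts was not tested. The coactivators of HIF fell: CREBBP was at 62.7 and 81.5 CPM in RB-1, against 202 and 352 CPM in DMSO (-1.94 ± 0.30, adjusted p = 0.00203). EP300 was at 69.9 and 102 CPM in RB-1, against 171 and 297 CPM in DMSO (-1.45 ± 0.31, adjusted p = 0.00878). Leaving out RB-1 replicate 1 (-1.20, adjusted p = 0.0913) or DMSO replicate 2 (-0.97, adjusted p = 0.0855) ended the EP300 call. CITED2, which competes with HIF for these coactivators, did not pass (-0.36 ± 0.28, adjusted p = 0.360), except with length and GC offsets and the replicate block (-0.63, adjusted p = 0.0402).

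**Figure D3:**
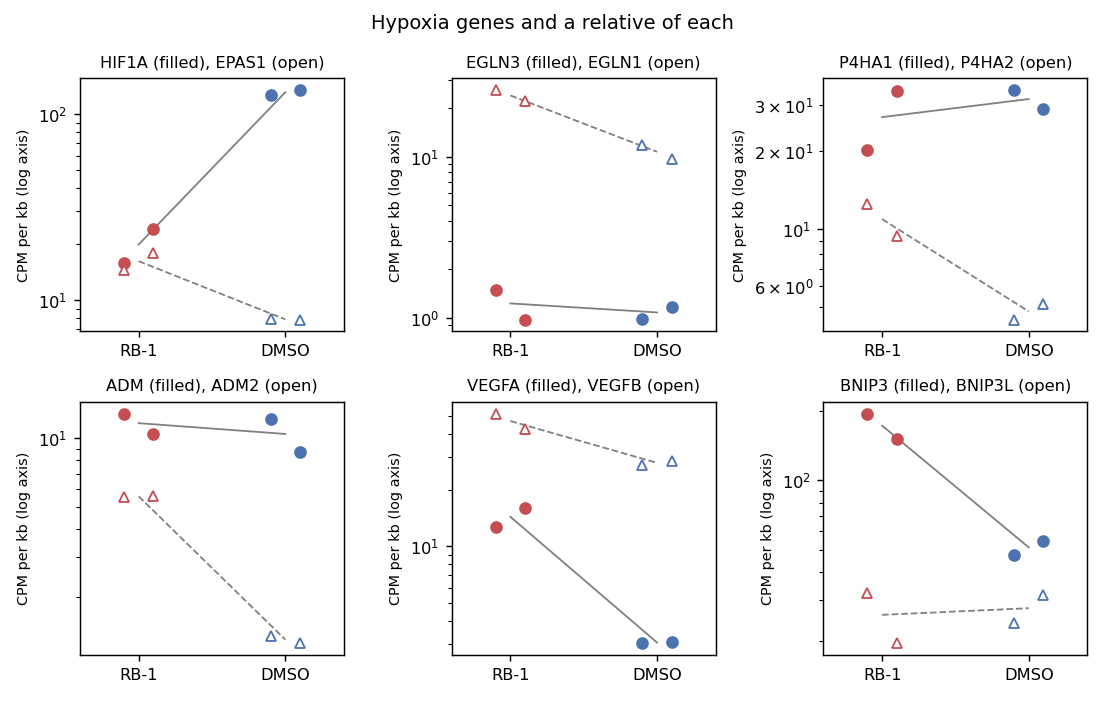
Levels in CPM per kilobase of exon (log axis) of 6 of the genes (filled circles) and a relative of each (open triangles), with RB-1 left of DMSO, 1 point per library and lines joining group means. EPAS1 reached 0.921 and 0.742 of HIF1A in RB-1, against 0.0619 and 0.0579 in DMSO, where the filled and open points are far apart.

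Set per kilobase of exon, the order of the genes differed between the groups. The length is that of all annotated exons of a gene merged, not of the transcript expressed. The rank of a gene among the others therefore depends on the annotation. In RB-1 the mean level was highest for BNIP3 (173 CPM per kb), followed by NDRG1 (96.0), SLC2A1 (61.1), P4HA1 (26.9), HIF1A (19.9), VEGFA (14.4), ADM (11.7), ANKRD37 (4.45), EGLN3 (1.23) and CA9 (0.964). In DMSO it was highest for HIF1A (132 CPM per kb), followed by BNIP3 (51.1), NDRG1 (40.7), SLC2A1 (37.4), P4HA1 (31.6), ADM (10.4), VEGFA (3.05), ANKRD37 (2.42), EGLN3 (1.08) and CA9 (0.0515). Within RB-1 the ranges of P4HA1 and HIF1A, of HIF1A and VEGFA, of VEGFA and ADM and of EGLN3 and CA9 overlapped, so their order is not settled. Within DMSO the same was the case for NDRG1 and SLC2A1. HIF1A was thus first of the 10 in both DMSO libraries, while BNIP3 was first in both RB-1 libraries.

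Ratios of a relative to its gene, per kilobase, were formed for 10 pairs. ADM2 stood at 0.432 and 0.533 of ADM per kilobase in the RB-1 libraries, against 0.111 and 0.144 in the DMSO libraries. P4HA2 stood at 0.620 and 0.276 of P4HA1 in RB-1, against 0.130 and 0.178 in DMSO. BNIP3L stood at 0.166 and 0.129 of BNIP3 in RB-1, against 0.504 and 0.578 in DMSO. The groups did not overlap in 9 of the 10 pairs. They overlapped for SLC2A3 over SLC2A1, at 0.320 and 0.438 in RB-1, against 0.405 and 0.371 in DMSO. Single genes did not overlap in 69.7% of those tested, but a ratio between genes is an unlike measure. Its share over other pairs was not computed, so the 9 pairs have no background. VEGFA is in the pairs of both VEGFB and VEGFC. CA9 passed the filter through its RB-1 libraries alone, which favoured a difference in its pair with CA12, so that pair is no independent result. With 2 libraries a group, an exact permutation test of such a ratio cannot reach a p under 0.05, so none was run. Of 25 relatives, receptors and partners listed, 21 were tested, 3 rose (ADM2, P4HA2 and P4HA3), none fell and 18 did not pass by edgeR, with a median log2 fold change of 0.31. The 14.3% that rose is near the 12.5% of all genes tested, so it is no result about the relatives. At an unadjusted p under 0.05, 7 relatives were higher and 1 lower; limma-voom called 1 lower and DESeq2 called none lower. With upper-quartile factors 6 of them rose, and without RB-1 replicate 1, DMSO replicate 1 or DMSO replicate 2 the number was 1 in each case.

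Other genes often listed as hypoxia targets outside glycolysis were counted next. Of 38, 14 rose, 2 fell and 22 did not pass, with a median log2 fold change of 0.76. That is 36.8% higher and 5.26% lower, against 12.5% and 15.8% of all genes tested. Without DMSO replicate 1 the numbers were 8 higher and 3 lower, and without DMSO replicate 2 they were 7 and 2. The 4 with the smallest p were DDIT4, CCNG2, LOX and MXI1. DDIT4, an inhibitor of mTORC1, was at 540 and 432 CPM in RB-1, against 65.6 and 94.7 CPM in DMSO (2.60 ± 0.27 SE, adjusted p = 0.000307 by edgeR). It is uncertain because 41.2% of its exon bases overlap its antisense transcript. CCNG2, an atypical cyclin that slows the cell cycle, was 3.64-fold higher, LOX, which cross-links collagen, 3.21-fold, and MXI1, an antagonist of MYC, 3.03-fold. The 2 that fell, named after their values were seen, were KDM3A, a histone demethylase, and TFRC, the transferrin receptor. KDM3A was at 26.0 and 41.5 CPM in RB-1, against 101 and 90.9 CPM in DMSO, and TFRC at 156 and 146 CPM in RB-1, against 714 and 348 CPM in DMSO.

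Glycolytic genes under hypoxia control numbered 19, of which 9 rose by edgeR, none fell and 10 missed the threshold, with a median log2 fold change of 0.53. The share that rose was 47.4%, against 12.5% of all genes tested, of which 15.8% fell. At an unadjusted p under 0.05, 0 of the 19 were lower, DESeq2 and limma-voom called none lower, and with length and GC offsets 1 was lower at the adjusted threshold. Without RB-1 replicate 1, DMSO replicate 1 and DMSO replicate 2 the number higher was 5, 5 and 4. The 4 with the smallest p were PGK1 (1.86), SLC16A3, a lactate exporter (1.61), PFKFB4 (1.46) and ENO2 (1.24), as log2 fold changes.

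**Figure D4:**
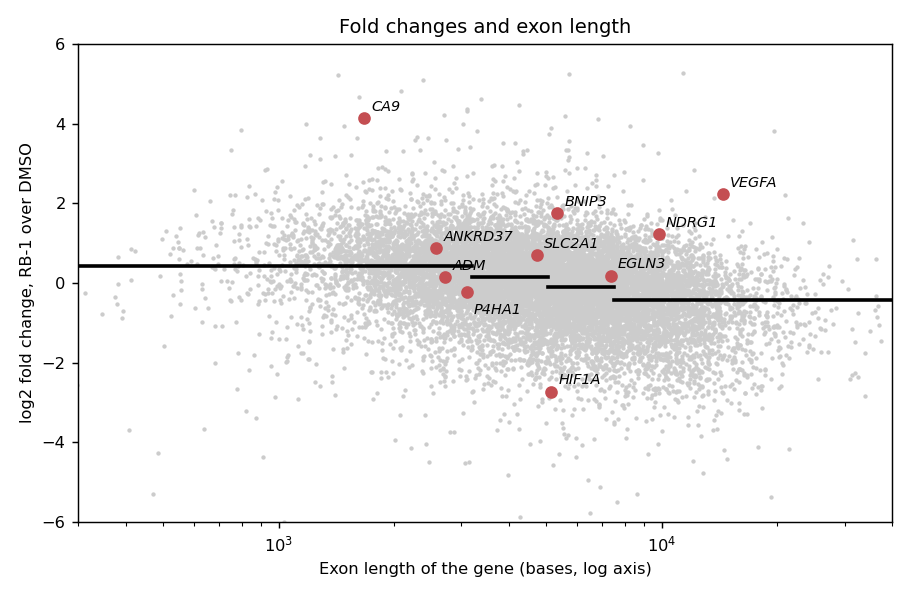
Log2 fold change of RB-1 over DMSO against the exon length of each gene on a log axis, for 13525 tested genes (grey; 71 more lie outside the axes), with the median of each length quartile as a black line and the 10 genes in red. VEGFA and NDRG1 lie well above the line of the longest quartile (-0.42), and HIF1A well below that of its own (-0.09).

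Fold changes in these data followed exon length, so the lengths of the genes matter. In the quartile with the shortest exons the median log2 fold change was 0.42, with 748 genes higher and 195 lower, and in the longest it was -0.42, with 162 higher and 1029 lower. Length also separated the RB-1 libraries from one another, with a Spearman correlation of -0.37 across 13596 genes between their log2 ratio (replicate 1 over replicate 2) and exon length; genes are not independent replicates. VEGFA (14431 bases) and NDRG1 (9823 bases) are in the longest quartile. HIF1A (5151 bases) and BNIP3 (5325 bases) are in the third quartile, where the median was -0.09. CA9, ADM, ANKRD37 and P4HA1 are in the shortest. With offsets for length and GC content the log2 fold change was -2.45 for HIF1A, 2.71 for VEGFA, 1.54 for NDRG1 and 1.66 for BNIP3. All of these passed, and ANKRD37, at 0.92, then passed too. CA9 was at 3.56 and passed, but it entered the test through its RB-1 libraries alone. The log2 fold change was 0.52 for SLC2A1, which lost its call, and -0.34 for ADM. EGLN3 was at 0.34 and P4HA1 at -0.09, and neither passed.

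The sequences before the starts of the genes were examined because HIF binds the core motif of the hypoxia response element, whose usual form is ACGTG and whose other form is GCGTG. Of the 10 genes, 8 matched RefSeq's promoter table (GRCh38.p14), with 9 starts. VEGFA and NDRG1 had no match and were not searched. The 250 bases before each start were searched on both strands, where a match on the other strand reads CACGT for the usual form and CACGC for the other. ACGTG was found in 4 genes (BNIP3, CA9, ANKRD37 and P4HA1), and either motif in 6, adding ADM and HIF1A. Counted by start, ACGTG was in 4 of the 9. Over all 35116 starts of the table, 18.5% hold ACGTG on either strand and 43.2% hold either motif. Those starts were not matched to the 9 for GC content, so the shares are no test of enrichment. Shown are those 4 genes and the start of HIF1A that holds a motif, 5′ to 3′ on the strand of the gene with each match in capitals; neighbouring matches can share letters, as in CACGTG, which reads the same on both strands.
BNIP3: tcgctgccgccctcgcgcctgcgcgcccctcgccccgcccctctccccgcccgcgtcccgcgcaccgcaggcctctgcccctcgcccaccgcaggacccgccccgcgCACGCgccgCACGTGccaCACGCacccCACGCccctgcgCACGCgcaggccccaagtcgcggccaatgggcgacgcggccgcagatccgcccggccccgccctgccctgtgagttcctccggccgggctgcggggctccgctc
CA9: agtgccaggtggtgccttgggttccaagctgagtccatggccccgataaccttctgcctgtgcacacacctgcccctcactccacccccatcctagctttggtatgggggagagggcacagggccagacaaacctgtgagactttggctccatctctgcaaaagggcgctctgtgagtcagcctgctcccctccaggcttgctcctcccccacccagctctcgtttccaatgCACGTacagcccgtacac
ANKRD37: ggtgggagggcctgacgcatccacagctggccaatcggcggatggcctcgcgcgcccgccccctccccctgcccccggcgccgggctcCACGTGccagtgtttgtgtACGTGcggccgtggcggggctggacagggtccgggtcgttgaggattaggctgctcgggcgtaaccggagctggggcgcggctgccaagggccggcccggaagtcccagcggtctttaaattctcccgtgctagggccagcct
P4HA1: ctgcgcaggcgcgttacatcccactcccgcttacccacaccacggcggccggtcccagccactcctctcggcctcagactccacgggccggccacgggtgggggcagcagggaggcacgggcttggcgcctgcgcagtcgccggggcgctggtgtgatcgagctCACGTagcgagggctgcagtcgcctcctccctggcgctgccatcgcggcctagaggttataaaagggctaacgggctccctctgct
HIF1A: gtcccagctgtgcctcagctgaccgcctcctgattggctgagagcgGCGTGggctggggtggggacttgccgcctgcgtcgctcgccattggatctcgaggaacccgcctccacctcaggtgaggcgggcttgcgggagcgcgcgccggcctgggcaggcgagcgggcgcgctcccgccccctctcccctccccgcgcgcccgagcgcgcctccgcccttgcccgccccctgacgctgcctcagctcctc

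The BNIP3 stretch is chr10:131981924-131982173 on the minus strand and holds CACGTG amid 4 copies of CACGC. The CA9 stretch is chr9:35673678-35673927 on the plus strand, with its match ending 14 bases before the start. The ANKRD37 stretch is chr4:185396591-185396840 on the plus strand, and its matches lie between 162 and 139 bases before the start. The P4HA1 stretch is chr10:73096867-73097116 on the minus strand, with CACGT from 86 to 82 bases before the start. The HIF1A stretch is chr14:61695263-61695512 on the plus strand, with GCGTG from 204 to 200 bases before the start. Genes with ACGTG here included BNIP3 and CA9, which rose, and P4HA1, whose groups overlapped. SLC2A1 rose and holds neither motif in its 250 bases, and VEGFA and NDRG1, which also rose, were not searched. A match is a string of letters in this window and was not tested for binding.

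**Figure D5:**
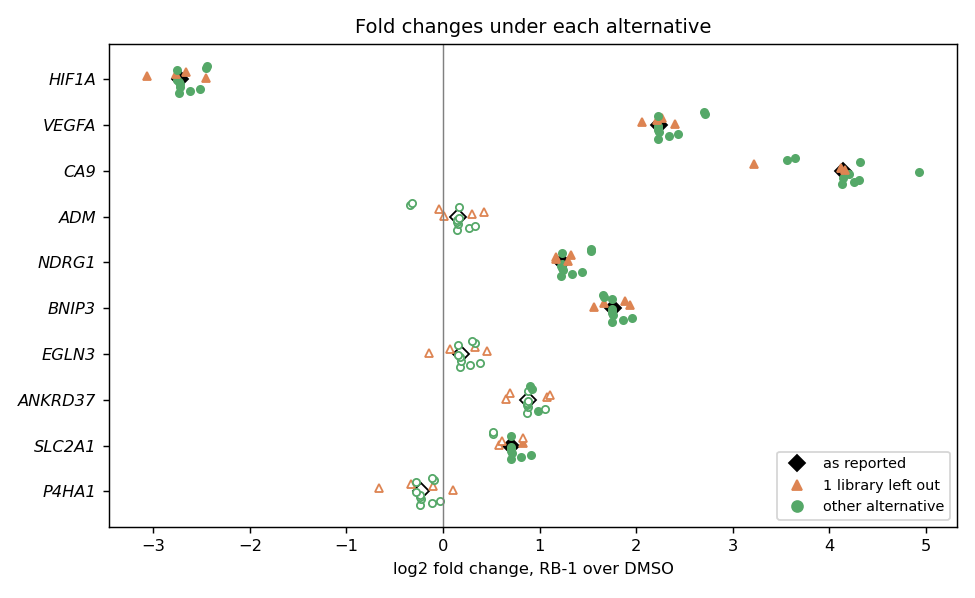
Log2 fold changes of the 10 genes as reported (black diamonds), with 1 library left out (orange triangles) and under the other alternatives (green circles); filled marks passed an adjusted p under 0.05. HIF1A stays between -3.06 and -2.44, while ADM, EGLN3 and P4HA1 lie on both sides of 0; CA9 without DMSO replicate 1 is not drawn, since its remaining DMSO library has 0 counts.

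Across the alternatives, HIF1A, VEGFA, NDRG1 and BNIP3 passed in each one. CA9 passed in those that tested it, but it entered the test through its RB-1 libraries alone, so that says nothing of stability. VEGFA ranged from 2.06 to 2.71, NDRG1 from 1.17 to 1.54 and BNIP3 from 1.56 to 1.96 as log2 fold changes. CA9 was not tested under the stricter count filter, which also removed EGLN3.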

How the data were processed

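RNA was measured in 2 RB-1 and 2 DMSO libraries, made with a kit for mRNA per the labels' protocols. The deposited values are raw read counts per gene from the authors. The submitters' processing notes name the builds GRCm38 and mm10, which are mouse builds, while the gene IDs are human. Not given in the sources used here were aligner, counter and strand setting.

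The members and lists were chosen with earlier results of these data known. The counts were analysed in R 4.3.3 with edgeR 4.0.16: TMM factors (0.868 to 1.10), the filterByExpr filter (13612 genes kept), the quasi-likelihood test with robust fitting and Benjamini-Hochberg adjustment over all genes tested, called at 0.05. The SE is the log2 fold change divided by the root of the F statistic. The fit had 2 residual degrees of freedom and a common biological coefficient of variation of 0.251. Totals of 34122874 to 37754168 counts made counting error small for abundant genes, but not for CA9 or P4HA3. Exon lengths and overlaps came from GENCODE 29, promoters from RefSeq. Alternatives were other scalings and filters, DESeq2 1.42.0, limma-voom (limma 3.58.1), a left-out library, a replicate block, length and GC offsets, and a fold threshold of 2. The code was tested on simulated data.

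The genes named were the 10 members, all oxygen-sensing genes, the 4 genes of smallest p in each other list, close paralogues or receptors of members, and the 3 closest profiles to HIF1A and to VEGFA. KDM3A and TFRC fall outside this rule and were chosen after their values were seen. Overlapping genes and copies were named for their bearing on a member's counts.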

Additional observations from a re-analysis of the deposited data

How the results depend on the processing

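The counts of higher and lower genes among the 10 were 4 to 6 and 1 under every alternative. Over all genes, leaving out 1 library gave 491 to 1925 higher and 1121 to 2424 lower, and library totals alone gave 1381 lower. Those scalings moved the median log2 fold change of all genes by 0.19 with library totals and 0.11 with upper-quartile factors. Leaving out 1 library gave 0 to 7 higher and 1 to 3 lower oxygen-sensing genes, 7 to 13 higher and 2 to 3 lower other targets, 4 to 9 higher glycolytic genes, and 1 to 3 higher and 0 to 2 lower relatives. Relatives higher were 6 with upper-quartile factors, 5 with library totals and 5 with length and GC offsets, without or with the block; 2 were higher with no count filter, with the stricter filter and with the replicate block. Relatives lower were 1 with no count filter, limma-voom, the replicate block, or offsets with the block. With length and GC offsets, without or with the block, 1 glycolytic gene was lower. The cause of these changes was not tested.

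Signs turned for 12 genes, in log2 fold change. Leaving out each library in turn gave -0.045 to 0.42 for ADM, -0.15 to 0.46 for EGLN3, -0.66 to 0.10 for P4HA1, -0.094 to 0.18 for ARNT, -0.55 to 0.025 for ARNT2, -0.68 to 0.082 for CITED2, -0.51 to 0.22 for BNIP3L, -0.18 to 0.36 for NRP1, -0.026 to 0.78 for NDRG3 and -0.24 to 0.59 for P4HB. With offsets the values were -0.34 for ADM, 0.28 for BNIP3L, -0.17 for VEGFC, 0.017 for NRP2 and -0.070 for P4HB. With offsets and the block they were -0.32 for ADM, 0.22 for BNIP3L, -0.17 for VEGFC, 0.022 for NRP2 and -0.034 for P4HB. BNIP3L was 0.11 with library totals. These 12 genes did not pass as reported.

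The deviations of same-numbered libraries from their group means had a correlation of -0.10 across genes. With 2 libraries a group this cannot settle whether the numbers mark pairs. With the replicate block 1721 genes were higher and 2289 lower, and the 10 genes kept 5 higher and 1 lower, with HIF1A at -2.76. CA9 and EGLN3 had no value under the stricter filter. A median SE of 0.31 limits the log2 changes that 2 libraries a group can show.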
